A study of Mus musculus with 4 samples.

Results

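The genes examined here are 47 mouse genes of mitosis and the spindle, measured in 2 cell populations sorted from the submandibular gland. They are known to act between mitotic entry and cytokinesis, and were listed by name with earlier results of these data known. Each gene is represented by its brightest probe on the array. All 47 had a probe, 27 were bright enough on at least 2 of the 4 arrays to be tested, and those 27 stand among 17362 genes and transcripts tested in all. The submandibular gland is one of the large paired salivary glands, and both populations were collected by fluorescence-activated sorting from C57BL/6 mice aged 8 to 10 weeks. The labels name no genetic change and no treatment beyond the sort. One group was labelled submandibular gland stem cells (2 samples) and the other non-stem cell epithelia (2 samples). Which surface markers defined the gates is not stated in the text used here. Nor is it stated that replicates were independent sorts or animals, or whether animals were pooled, and the p-values therefore cover no more than the spread of these samples, possibly a technical one.

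In mitosis, cyclin-dependent kinase 1 with its A- and B-type cyclins drives entry, condensins compact the chromosomes, and kinetochores attach each chromosome to spindle microtubules. The spindle checkpoint holds the anaphase-promoting complex (APC/C) in check until attachment is complete, after which cyclin B and securin are degraded, sister chromatids part and the cell is cleaved at the midzone. Many of these genes are transcribed late in the cell cycle: the DREAM complex represses them in resting cells through the MuvB proteins, and MYBL2 and FOXM1 join MuvB to activate them. MuvB contacts a short promoter element called the CHR (cell cycle genes homology region), with the letters TTTGAA or TTCGAA, which often lies near a CCAAT box, the site of the factor NF-Y.

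Promoter letters were read for the 39 of the 47 genes that have an entry in a RefSeq promoter table (build GRCm38.p6, 250 bases before to 50 bases after each start site, both strands searched). TTTGAA was found in 29 of the 39 genes (74.4%), against 20.2% of all 27025 genes in the table. TTCGAA was found in 4 of the 39 (10.3%, against 1.80% of all genes). Either form of the CHR letters was present in 31 of the 39 (79.5%, against 21.7%), and in 28 of the 39 it began within 50 bases of a start site (71.8%, against 6.12%). CCAAT was present in 30 of the 39 (76.9%, against 41.1%), at least 2 copies of it in 19 (48.7%, against 13.3%), and both kinds of letters in 28 (71.8%, against 8.61%). These counts describe letters in a window, and a match does not show that a factor binds there. In these promoters 1 pair of matches that included CHR letters shared bases, in Cdca8. The CCAAT matches of Ube2c at -186 and -183 also shared bases and were counted as separate copies. Neither kind of letters was held in this window by 6 genes, Birc5, Mad2l1, Nuf2, Nusap1, Plk4 and Pttg1.

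The promoters of the 9 tested genes with CHR letters wholly before a start site are shown, 7 of genes that rose and 2 (Bub3 and Ncapd2) of genes that did not pass the test described further on, each over the 180 bases that precede the start, read 5′ to 3′ on the strand of the gene. Capitals mark TTTGAA or its reverse complement TTCAAA, and CCAAT or its reverse complement ATTGG. In GRCm38.p6 the stretches are chr9:70421555-70421734 on the minus strand for Ccnb2, chr4:118437344-118437523 on the minus strand for Cdc20 and chr3:27153855-27154034 on the minus strand for Ect2. Mki67 is shown at chr7:135716380-135716559 on the minus strand and Prc1 at chr7:80294296-80294475 on the plus strand. Bub3 is shown at chr7:131560190-131560369 on the plus strand and Ncapd2 at chr6:125191587-125191766 on the minus strand. Smc2 is shown at chr4:52439041-52439220 and Ube2c at chr2:164769749-164769928, both on the plus strand.
Bub3: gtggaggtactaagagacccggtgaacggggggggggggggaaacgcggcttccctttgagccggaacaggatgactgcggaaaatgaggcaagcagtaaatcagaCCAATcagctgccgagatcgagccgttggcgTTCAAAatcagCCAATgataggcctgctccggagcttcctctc
Ccnb2: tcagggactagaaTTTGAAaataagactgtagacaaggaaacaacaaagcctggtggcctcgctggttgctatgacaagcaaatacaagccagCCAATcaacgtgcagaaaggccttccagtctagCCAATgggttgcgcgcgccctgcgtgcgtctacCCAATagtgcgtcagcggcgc
Cdc20: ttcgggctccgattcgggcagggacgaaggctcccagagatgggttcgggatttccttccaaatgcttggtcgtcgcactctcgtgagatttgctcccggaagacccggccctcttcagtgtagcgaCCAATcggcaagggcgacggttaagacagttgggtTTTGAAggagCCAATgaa
Ect2: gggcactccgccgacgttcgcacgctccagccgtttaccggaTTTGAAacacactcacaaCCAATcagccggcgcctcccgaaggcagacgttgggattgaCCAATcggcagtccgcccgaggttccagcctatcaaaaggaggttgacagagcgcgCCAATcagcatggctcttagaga
Mki67: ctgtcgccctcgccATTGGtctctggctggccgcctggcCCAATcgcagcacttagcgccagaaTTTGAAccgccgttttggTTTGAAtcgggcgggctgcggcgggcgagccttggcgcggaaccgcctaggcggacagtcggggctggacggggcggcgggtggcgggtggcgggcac
Ncapd2: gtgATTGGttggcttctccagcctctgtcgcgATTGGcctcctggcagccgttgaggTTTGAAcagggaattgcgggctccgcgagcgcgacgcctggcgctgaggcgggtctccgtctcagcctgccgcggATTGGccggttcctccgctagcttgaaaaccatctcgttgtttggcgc
Prc1: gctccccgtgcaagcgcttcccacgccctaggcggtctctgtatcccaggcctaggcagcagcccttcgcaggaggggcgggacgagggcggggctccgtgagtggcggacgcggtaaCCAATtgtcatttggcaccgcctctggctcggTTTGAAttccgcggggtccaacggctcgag
Smc2: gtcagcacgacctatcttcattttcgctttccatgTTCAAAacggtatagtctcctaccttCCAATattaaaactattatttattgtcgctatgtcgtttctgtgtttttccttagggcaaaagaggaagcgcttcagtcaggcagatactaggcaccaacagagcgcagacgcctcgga
Ube2c: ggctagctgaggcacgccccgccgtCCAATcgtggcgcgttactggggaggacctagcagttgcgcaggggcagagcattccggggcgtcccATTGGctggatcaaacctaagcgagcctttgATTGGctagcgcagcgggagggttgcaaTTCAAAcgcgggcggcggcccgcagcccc
In Cdc20, Prc1 and Ube2c the CHR letters shown begin -18, -30 and -29 bases from the start, and in Bub3 and Ncapd2 -43 and -123. In Mki67 they occur at -116 and again at -98, downstream of the capitalised CCAAT letters. In Ccnb2 the copy shown begins at -167, and another at 5 bases past the start is not printed. Smc2 likewise has a copy at -145, shown, and one at 27 past the start, and Ect2 has one at -138 and one at 16 from the start used here.

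**Figure D1:**
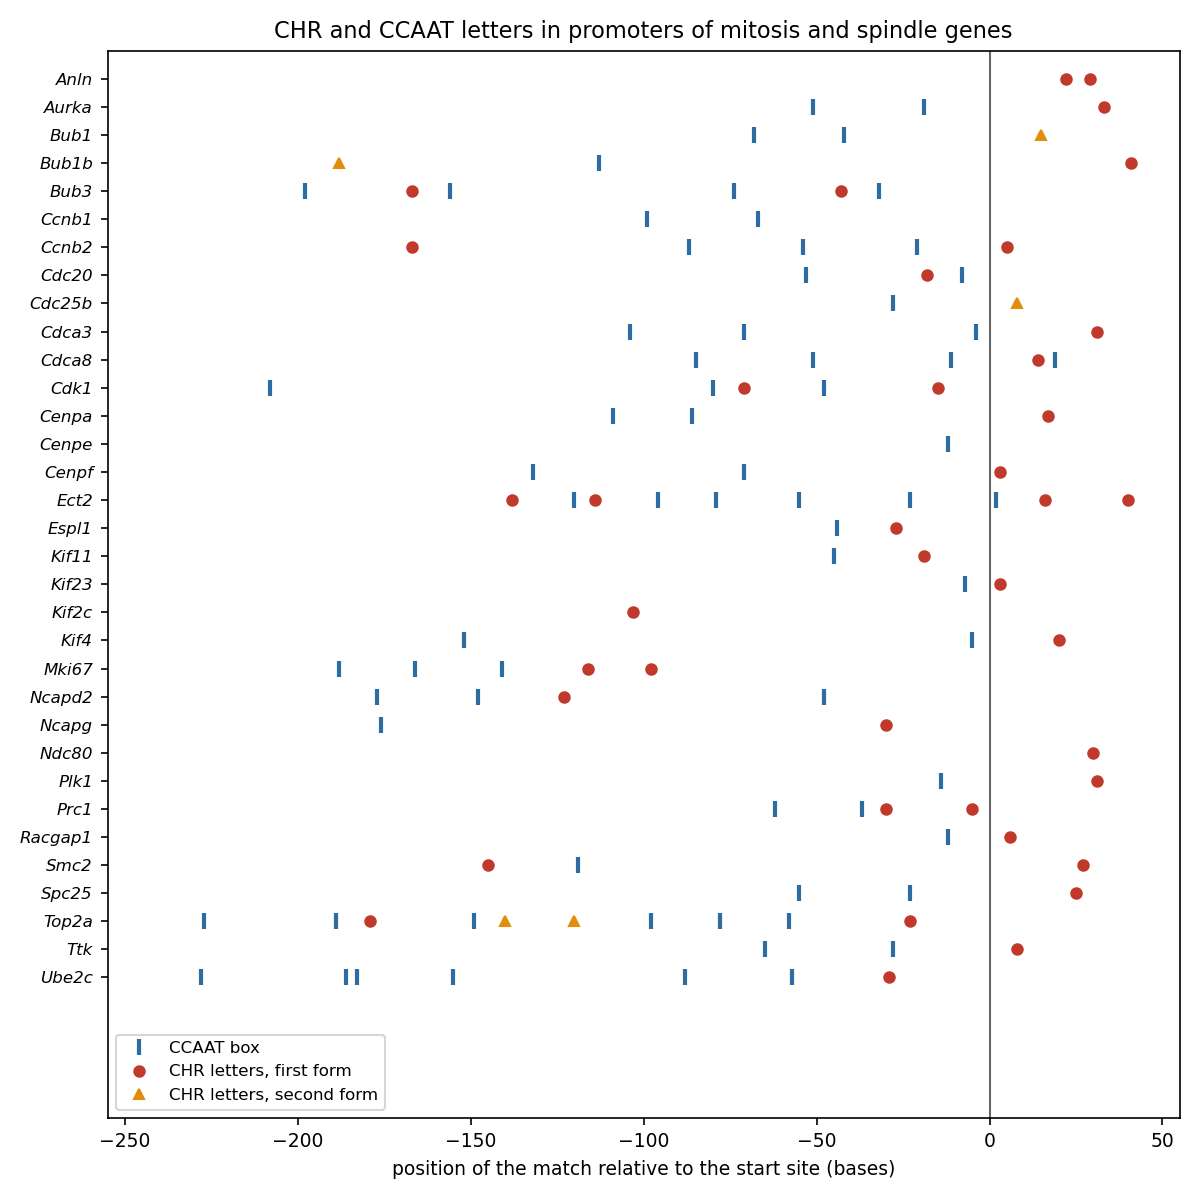
Position of CHR letters (circles, TTTGAA; triangles, TTCGAA) and CCAAT boxes (bars), on either strand, relative to the RefSeq start site (vertical line), in bases, for each mitosis and spindle gene with a match. Most CHR matches lie within 50 bases of the start and most CCAAT boxes lie upstream of it; for genes with several start sites (such as Ect2, Prc1 and Bub3) the same element appears more than once.

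Each sample was hybridised to 1 one-colour array, and all 4 arrays lay on the same slide and were scanned together. Levels below are log2 signals relative to the 75th percentile of the same array, so that they can be compared between arrays for 1 gene but not between genes. That 75th percentile was a signal of 30.4 and 43.3 for stem cells and 74.8 and 63.0 for the others, and 35.7% to 42.3% of spots were well above background. Precision is limited by having 2 arrays per group. Arrays of a group correlated at 0.986 (stem cells) and 0.992 (non-stem cell epithelia) over the tested probes, and arrays of different groups at 0.923 to 0.935. With bulk RNA, fewer cycling cells and less of a transcript per cell cannot be told apart.

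Most of the measurable mitosis genes were higher in stem cells. Of the 27 tested, 22 rose in stem cells, 0 fell and 5 did not pass the test (limma, Benjamini-Hochberg adjusted p under 0.05 over all 17362 genes; 23 higher and 0 lower at an unadjusted p under 0.05). Over all genes tested, 14.1% were called higher and 16.8% lower. Because the list was chosen with earlier results of these data known, these shares stand beside the counts without a test over the list. At the level of at least 2-fold, 20 of the 27 were called higher, against 7.06% of all genes. In 25 of the 27 both stem cell arrays lay above both others, which held for 34.7% of all genes. The median log2 difference was 1.49 over the 27 genes, against -0.01 over all genes. Setting the 5 genes that have only a lower bound at that bound could not change the median of the 27, since each bound lies above it. A gene measurable in stem cells alone had to differ in order to be tested, so the counts were also taken over the 19 mitosis genes well above background on every array. Of these 15 rose and 4 did not pass, with a median of 1.19, where 14.5% of all such genes were called higher, 14.8% lower, and their median difference was 0.03.

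The size of the differences depends on how the arrays are put on 1 scale, because the stem cell arrays were dimmer: their mean 75th percentile lay lower by 0.92 on the log2 scale (a value of -0.92 for stem minus non-stem). Without any scaling between arrays, 14 of the 27 genes had both stem cell signals above both others, 5 had both below and 8 overlapped. Then 12 of the 27 were called higher and 2, Cdc25b and Bub3, lower, against 432 higher and 8901 lower among all genes, whose median shifted to -0.93. The 12 were Ccnb1, Ccnb2, Ccna2, Mki67, Plk1, Birc5, Cenpe, Cdca3, Ect2, Prc1, Kif20a and Anln. The scaled differences are therefore changes relative to the other genes on the array. Among all calls 45.7% were higher in the main scaling and 59.3% with the percentile taken over probes detected on all arrays (22 mitosis genes higher, 0 lower). After normexp background correction 25.3% were higher (19 mitosis genes higher, 1 lower). Normexp was run with an offset of 50 added to every signal, which by itself makes log2 differences of dim genes smaller.

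**Figure D2:**
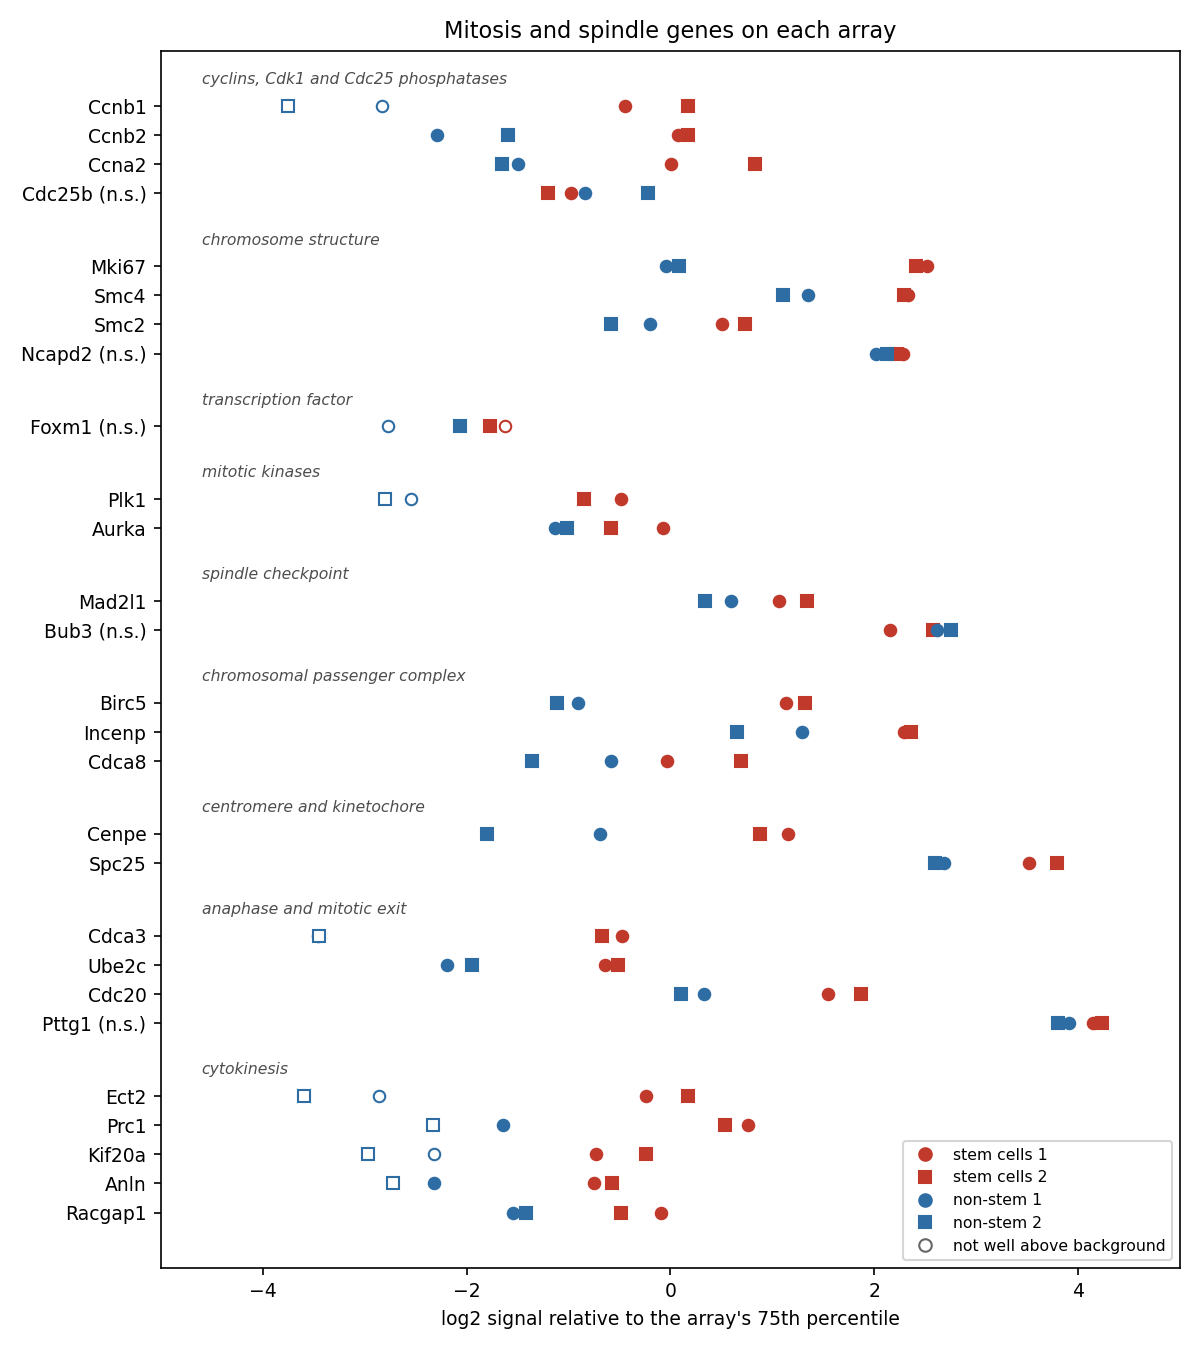
Level of each of the 27 tested mitosis and spindle genes on each array, as log2 signal relative to the array's 75th percentile, grouped by role; red is stem cells, blue non-stem cell epithelia, circles replicate 1 and squares replicate 2. Open symbols were not well above background and n.s. marks the 5 genes that did not pass the test; in 25 of the 27 genes both red symbols lie to the right of both blue ones.

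Mitotic entry was represented by the cyclins, Cdk1 and the Cdc25 phosphatases, of which 4 of 6 could be tested and 3 rose. Ccnb1, cyclin B1 (probe at chr13:101548722-101548781 in mm9, the build of all probe positions here), stood at -0.44 and 0.17 in stem cells. In non-stem cell epithelia it was not well above background on either array, with measured levels of -2.83 and -3.75. This puts it at least 5.19-fold higher (adjusted p = 0.0032 from limma on the measured signals). Such bounds set the mean of the brighter group against a floor on each dim array. The floor is the gene's own level or the array's lowest signal above background, whichever is higher. An undetected probe can read above that lowest signal, as Kif20a did on non-stem replicate 1 (-2.32 against -2.53), so the bounds are approximate.

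Ccnb2, cyclin B2 (chr9:70255671-70255730), was measured on all 4 arrays, at 0.07 and 0.18 in stem cells and -2.30 and -1.59 in the others. The groups did not overlap, and the difference was 2.07 ± 0.26 on the log2 scale (SE, n = 2 per group; 4.20-fold, adjusted p = 0.0042 by limma). Ccna2, cyclin A2 (chr3:36463978-36464037), which acts in S phase as well as at mitotic entry, stood at 0.01 and 0.83 against -1.49 and -1.65. Its difference was 1.99 ± 0.29 (3.97-fold, limma adjusted p = 0.0067), and the call was lost without non-stem replicate 1 (adjusted p = 0.0532) or 2 (0.0702). Cdc25b, a phosphatase that activates Cdk1, did not pass the test. It read -0.98 and -1.20 in stem cells and -0.84 and -0.22 in the others, with both stem cell arrays below, a difference of -0.56 ± 0.25 (limma adjusted p = 0.14). Neither Cdk1, with 3 probes, nor Cdc25c was well above background on any array.

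Among the genes of chromosome structure, 4 of 6 were tested and 3 rose. Mki67, the proliferation antigen Ki-67 that coats mitotic chromosomes (chr7:142884764-142884823), was at 2.52 and 2.41 in stem cells and at -0.05 and 0.09 in the others. It was measured on every array, with a spread within each group far smaller than the distance between them, and was 5.46-fold higher (log2 difference 2.45 ± 0.16, limma adjusted p = 0.00056). The condensin ATPase subunits Smc4 and Smc2 rose less. Smc4 (chr3:68838437-68838496) stood at 2.33 and 2.30 against 1.35 and 1.10, a difference of 1.09 ± 0.17 (2.13-fold, limma adjusted p = 0.0076). Smc2 (chr4:52501012-52501071) stood at 0.51 and 0.74 against -0.20 and -0.59, a difference of 1.01 ± 0.20 (2.02-fold, limma adjusted p = 0.017). Both calls were lost without non-stem replicate 2 (limma adjusted p = 0.0664 for Smc4 and 0.106 for Smc2) and without scaling, where the differences were 0.17 and 0.09. Ncapd2, the non-SMC subunit D2 of condensin I, did not pass: its levels were 2.29 and 2.23 against 2.01 and 2.13, a difference of 0.19 ± 0.15 (limma adjusted p = 0.39) that was negative after normexp correction and without scaling. Ncapg was above background on no array. Top2a, the topoisomerase that untangles sister chromatids, was above background on stem cell replicate 2 alone, so neither was tested.

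Foxm1, the transcription factor named above, was close to the detection limit. It was well above background on 1 array of each group, replicate 2 in both. Its levels were -1.62 and -1.77 in stem cells and -2.78 and -2.07 in the others, a difference of 0.73 ± 0.26 that did not pass (limma adjusted p = 0.089).

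Of the mitotic kinases, Plk1 and Aurka were tested and both rose. Plk1, the polo-like kinase needed for centrosome maturation and mitotic exit (chr7:129313220-129313279), stood at -0.48 and -0.85 in stem cells and fell short of detection on both non-stem arrays, where it read -2.55 and -2.80. It was at least 3.59-fold higher (limma adjusted p = 0.0020). Aurka, aurora kinase A of the spindle poles (chr2:172181726-172181785), lay at the edge of the threshold. Its levels were -0.07 and -0.58 against -1.13 and -1.01, a difference of 0.75 ± 0.22 (1.68-fold, limma adjusted p = 0.0498). The call did not pass in 9 of the alternatives planned, and without scaling the difference was -0.17. Plk4, which starts centriole duplication, was above background on no array.

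The spindle checkpoint could be followed in 2 of its 5 listed genes. Mad2l1, whose protein MAD2 binds and inhibits CDC20, was at 1.07 and 1.34 in stem cells and 0.60 and 0.34 in the others (chr6:66490836-66490895). The groups did not overlap and the gene rose by 0.74 ± 0.19 (1.67-fold, limma adjusted p = 0.034), a difference that was -0.18 without scaling and 0.31 after normexp correction (limma adjusted p = 0.127). It also missed the threshold without non-stem replicate 1 or 2 or stem cell replicate 2 (limma adjusted p = 0.0569 to 0.183). Bub3, which anchors checkpoint kinases at kinetochores, read 2.16 and 2.58 against 2.61 and 2.75, with both stem cell arrays below, a difference of -0.31 ± 0.20 that did not pass (limma adjusted p = 0.28). After normexp correction the same gene was called lower, at -0.59 (limma adjusted p = 0.021). The checkpoint kinases Bub1, Bub1b and Ttk were not tested, since Bub1 was above background on no array and the other two on 1 array each.

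All 3 tested genes of the chromosomal passenger complex, which corrects faulty attachments and then directs cleavage, rose. Birc5, survivin (chr11:117716978-117717037), stood at 1.13 and 1.32 in stem cells and at -0.90 and -1.11 in the others. Its difference was 2.23 ± 0.17 (4.69-fold, limma adjusted p = 0.00090). Incenp, the scaffold of the complex (chr19:9946893-9946952), stood at 2.30 and 2.36 against 1.30 and 0.65, a difference of 1.35 ± 0.24 (2.55-fold, limma adjusted p = 0.013); the call was lost without non-stem replicate 2 (adjusted p = 0.0602). Cdca8, borealin (chr4:124595809-124595868), varied more within its groups, with -0.04 and 0.69 against -0.59 and -1.36, and its difference was 1.30 ± 0.35 (2.47-fold, limma adjusted p = 0.042). This call was lost after quantile normalization (limma adjusted p = 0.0643) and without non-stem replicate 1 (0.0648) or 2 (0.205). Without scaling Incenp and Cdca8 read 0.43 and 0.38 and neither passed. The kinase of the complex, Aurkb, was above background on no array.

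At the centromere and kinetochore, 2 of 6 genes were tested and both rose. Cenpe, a kinesin that carries chromosomes to the spindle equator (chr3:134936387-134936446), stood at 1.16 and 0.88 in stem cells and at -0.69 and -1.80 in the others. Its non-stem arrays were more than 1 log2 unit apart, and the difference was still 2.26 ± 0.37 (4.80-fold, limma adjusted p = 0.0098). Spc25, a subunit of the NDC80 complex that grips microtubule ends (chr2:69031953-69032012), stood at 3.52 and 3.80 against 2.69 and 2.60, a difference of 1.02 ± 0.17 (2.02-fold, limma adjusted p = 0.011). The Spc25 call was lost after normexp correction (0.48, limma adjusted p = 0.0560) and without non-stem replicate 1 (0.0630) or 2 (0.0866), and without scaling the difference was 0.10. Its partners Ndc80 and Nuf2 could not be followed: Ndc80 was above background on stem cell replicate 1 alone and Nuf2 on no array. Cenpa, the centromeric histone, was above background on stem cell replicate 2 alone, and Cenpf on no array.

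Anaphase and mitotic exit gave 4 tested genes of 5, of which 3 rose. Cdca3, a trigger of mitotic entry that is itself degraded through the APC/C (chr6:124783233-124783292), stood at -0.48 and -0.67 in stem cells. In the others it read -3.46 and -3.45, below the detection limit, which makes the stem cell level at least 3.82-fold higher (limma adjusted p = 0.00037). Ube2c, the ubiquitin-conjugating enzyme of the APC/C (chr2:164598016-164598075), stood at -0.64 and -0.52 against -2.19 and -1.95, a difference of 1.49 ± 0.17 (2.81-fold, limma adjusted p = 0.0031). Cdc20, the activator of the APC/C that the checkpoint restrains (chr4:118105534-118105593), stood at 1.55 and 1.87 against 0.33 and 0.11, a difference of 1.49 ± 0.19 (2.81-fold, limma adjusted p = 0.0044). In both, the distance between the groups was larger than the spread within them. Without scaling each read 0.57 and did not pass, and Cdc20 also missed the threshold without non-stem replicate 2 (limma adjusted p = 0.0516). Pttg1, securin, the inhibitor of separase, did not pass: its levels were 4.15 and 4.24 against 3.91 and 3.80, a difference of 0.34 ± 0.15 (limma adjusted p = 0.15). Its other probe gave -0.35, so the 2 probes of this gene disagreed in sign. That probe was far dimmer, at -1.99 and -1.29 against -1.43 and -1.15, and was above background on 3 arrays. Separase itself, Espl1, was above background on no array.

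Cytokinesis gave 5 tested genes of 6, all of which rose, with 1 of them, Racgap1, above background on all 4 arrays. Ect2, the exchange factor that activates RhoA at the cell equator (chr3:26996278-26996337), stood at -0.24 and 0.18 in stem cells and was not well above background in the others, at -2.86 and -3.60. It was at least 5.58-fold higher (limma adjusted p = 0.0016). Prc1, which bundles the midzone microtubules (chr7:87461048-87461107), stood at 0.77 and 0.54 against -1.65 and -2.33, the last of these not well above background. Its difference was 2.64 ± 0.26 (6.23-fold, limma adjusted p = 0.0020), and both stem cell arrays were far above both others. Kif20a, a midzone kinesin on chromosome 18, stood at -0.73 and -0.24 against -2.32 and -2.96, neither of the latter well above background, and was at least 3.78-fold higher (limma adjusted p = 0.0050).

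Anln, anillin of the contractile ring (chr9:22136685-22136744), stood at -0.75 and -0.58 against -2.32 and -2.72, the last not well above background. Its difference was 1.86 ± 0.20 (3.63-fold, limma adjusted p = 0.0025). Racgap1, the centralspindlin partner of ECT2 (chr15:99451768-99451827), was measured on all 4 arrays at -0.09 and -0.49 against -1.54 and -1.42, a difference of 1.19 ± 0.19 (2.28-fold, limma adjusted p = 0.0092). Its call was lost without non-stem replicate 1 or 2, and also without scaling, where the log2 difference was 0.27. Kif23, the motor subunit of centralspindlin, was above background on no array.

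**Figure D3:**
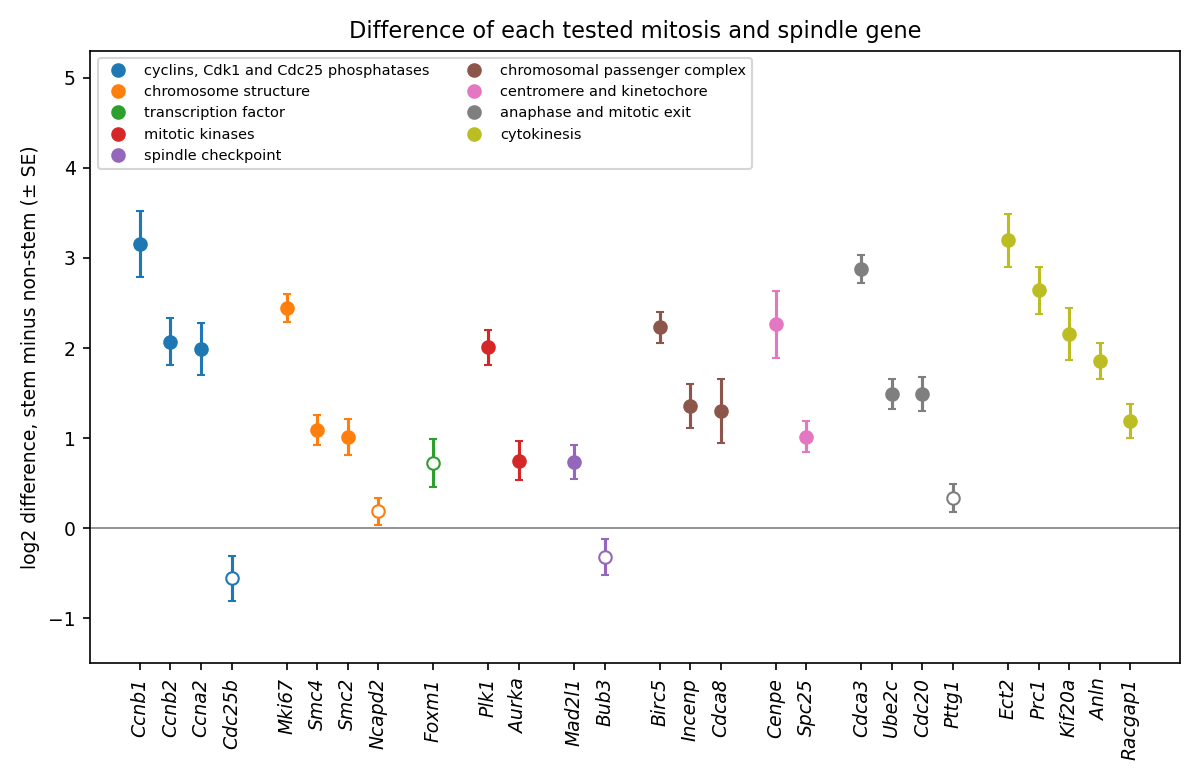
Log2 difference between stem cells and non-stem cell epithelia (mean of 2 arrays each; bars are the SE of the limma fit) for the 27 tested genes, coloured by role; filled symbols passed the test and open ones did not. Ect2 and Ccnb1 lie at the top with 3.20 and 3.16, which are measured signals where the lower group was below detection, and Cdc25b (-0.56) and Bub3 (-0.31) lie below 0.

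Of the 20 genes that were not tested, 13 were above background on no array and 7 on 1 array. All 5 listed spindle motors and microtubule proteins, Kif11, Kif2c, Kif4, Nusap1 and Tpx2, were among them. Of the 6 untested genes whose brightest probe was detected once, 5 were detected in stem cells (Cenpa, Top2a, Bub1b and Nusap1 on replicate 2, Ndc80 on replicate 1) and 1, Ttk, on non-stem replicate 1. Tpx2 was detected on 1 array through its second probe. Measured on at most 1 array each, these 20 genes are given no difference. Over the 27 tested genes, 26 and 27 were above background in the 2 stem cell samples and 21 and 20 in the others. Of the 27, 5 passed the filter through the stem cell arrays alone, so these counts follow in part from the filter. Over all spots, 35.7% and 39.0% were well above background in stem cells and 42.3% and 41.9% in the others.

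A check within the arrays was possible for 3 genes that have a second probe well above background on all 4 arrays. The second probes gave 2.50 for Mki67 (2.45 from the first), 1.53 for Incenp (1.35) and 1.18 for Racgap1 (1.19). In these 3 the probes gave the same direction and a similar size.

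Among the genes that rose, 18 had a promoter entry, and 14 of those (77.8%) held CHR letters and 15 (83.3%) CCAAT. Bub3 and Ncapd2, which did not pass the test, held TTTGAA and CCAAT as well, and Cdc25b held TTCGAA and CCAAT. Birc5 and Mad2l1, which rose, held neither in this window, and Ccnb1 and Cenpe held CCAAT alone.

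Further genes, most of which act beside these in mitosis, were taken from 9 other lists, with 166 genes of which 117 were tested. The lists also hold some genes without an established part in mitosis, such as Kif5b and Cyth3, and the counts include them. Over the 117 tested, 32 rose, 6 fell and 79 did not pass, with a median difference of 0.22. Among the 98 of them on all 4 arrays, 21 rose, 5 fell and 72 did not pass, with a median of 0.18. The shares of all genes given above (14.1% higher, 16.8% lower) are the background for these counts. How these lists differ from the 47 genes was not tested.

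Of the list of APC/C genes, which holds its subunits, its coactivator Cdh1, the enzyme Ube2s and its inhibitor Fbxo5, 0 of the 13 tested passed the limma test, and their differences ran from -0.41 to 0.49 (median 0.15). At an unadjusted limma p under 0.05, 4 of the 13 were higher and 0 lower. These were Anapc7 at 0.43 ± 0.15 (adjusted p = 0.080), Cdc27 at 0.46 (adjusted p = 0.084), Fbxo5 at 0.46 (adjusted p = 0.086) and Anapc2 at 0.49 (adjusted p = 0.10). Cohesin, which holds sister chromatids together, had 2 of 11 called higher. These were Sgo1, the protector of centromeric cohesion, at 1.41 ± 0.25 (limma adjusted p = 0.012) and Pds5a, a cohesin release and maintenance factor, at 0.63 ± 0.17 (limma adjusted p = 0.042). The ring subunits Smc3, Smc1a and Rad21, named after their values were seen, read 0.32, 0.21 and -0.02 without passing. Of the 4 other condensin subunits, Ncaph rose by 1.61 ± 0.17 (limma adjusted p = 0.0026) and Ncapg2 by 0.96 ± 0.18 (limma adjusted p = 0.013), while Ncaph2 read 0.52 and Ncapd3 -0.18 without passing.

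Kinetochore and centromere proteins outside the 47 went in both directions, with 4 of 14 called higher and 2 lower. Dsn1, of the MIS12 complex, was at least 4.66-fold higher by its group mean, but its stem cell arrays lay far apart, at 0.70 and -1.28. Kntc1, a subunit of the RZZ complex, was at least 2.00-fold higher, and Cenpk rose by 0.89 (limma adjusted p = 0.039). Zw10, another RZZ subunit, which also serves in membrane traffic, was lower by limma (difference -0.98 ± 0.26, adjusted p = 0.037), as was Cenpc1 (-0.53 ± 0.15, adjusted p = 0.044). The RZZ subunit Zwilch, named after its values were seen, was called higher at 1.37 ± 0.37 (limma adjusted p = 0.041). It was well above background on 1 array of each group. Regulators of entry and of the checkpoint gave 5 of 18 higher and 2 lower. Melk, a kinase of cycling cells, rose by 2.04 ± 0.32 (limma adjusted p = 0.0086, not well above background on non-stem replicate 2), and the kinase Pbk and the Cdk-binding protein Cks2 were at least 2.35-fold and at least 2.06-fold higher. Cdc25a, a phosphatase of the same family as Cdc25b, was called lower at -1.27 ± 0.17 (limma adjusted p = 0.0051), as was Cks1b, the paralogue of Cks2, at -0.67 ± 0.17 (limma adjusted p = 0.037).

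Spindle pole and spindle assembly proteins gave 11 of 24 higher and 0 lower, with a median of 0.47. Tubb5, a beta-tubulin, rose by 1.33 ± 0.15 (limma adjusted p = 0.0032), Spag5 (astrin) was at least 1.86-fold higher, Ckap2 was at least 1.97-fold higher, and the augmin subunit Haus8 rose by 0.90 ± 0.16 (limma adjusted p = 0.012). Of the further kinesins listed, not all of them mitotic, 2 of 6 were called higher and 1 lower. Kif22, a chromosome-arm kinesin, rose by 1.57 ± 0.23 (limma adjusted p = 0.0068), Kif20b was at least 2.24-fold higher, and Kif5b, a cargo motor of interphase cells, at least 2.02-fold lower. The further cytokinesis proteins gave 1 of 12 higher and 1 lower. The higher one was Cyth3, an exchange factor for ARF GTPases that is not an established cytokinesis protein, at 1.07 (limma adjusted p = 0.011). The lower one was Vps4b, an ATPase of the ESCRT machinery, at -0.69 ± 0.15 (limma adjusted p = 0.023). The MuvB, DREAM and MYBL2 regulators gave 5 of 15 higher and 0 lower. Among them E2f1, a driver of entry into S phase, rose by 1.67 ± 0.23 (limma adjusted p = 0.0055, 3 arrays above background), Mybl2 by 0.81 ± 0.15 (limma adjusted p = 0.013), Lin9, a MuvB subunit, by 1.21 (limma adjusted p = 0.017), and the pocket protein Rbl1 by 0.91 (limma adjusted p = 0.011).

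**Figure D4:**
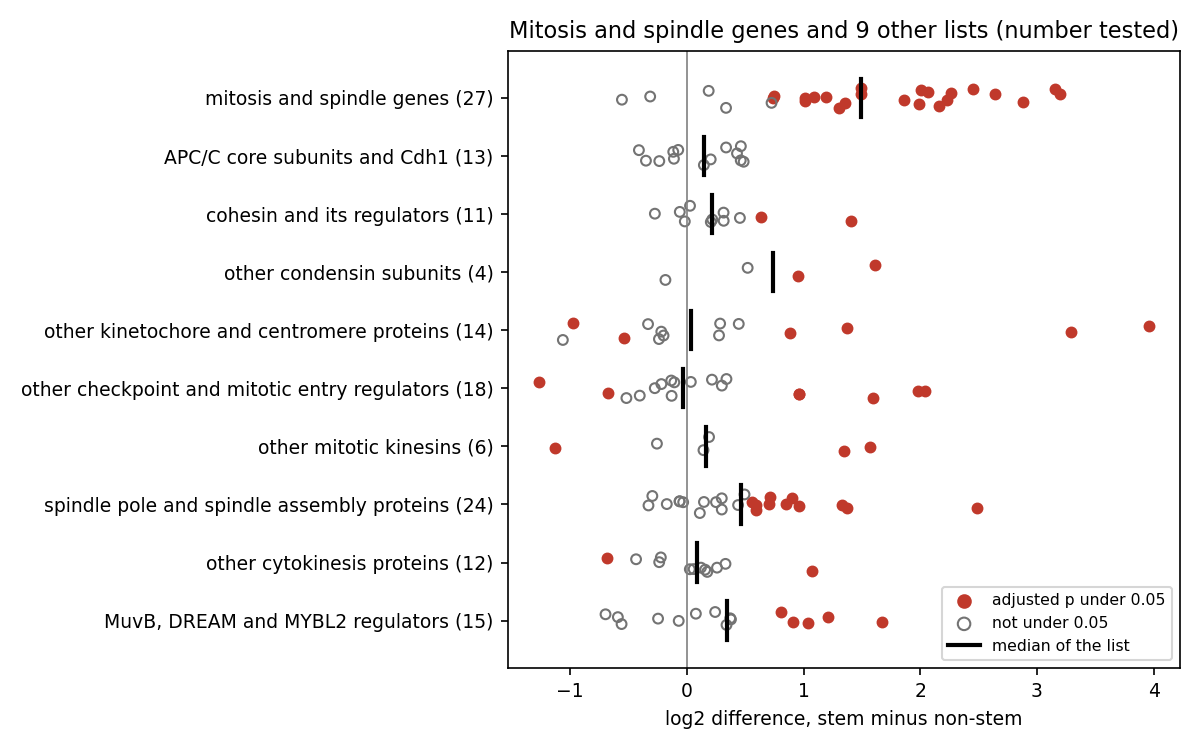
Log2 difference of every tested gene of the mitosis and spindle genes and of 9 other mitosis lists, with the number tested in brackets; filled circles have an adjusted p under 0.05 by limma, and the bar is the median of the list. The medians are 1.49 for the 27 mitosis and spindle genes, 0.15 for the APC/C and 0.47 for the spindle pole proteins.

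The 2 sorts differed in the markers of several cell types, and these values stand beside the mitosis genes. Values are sums over a list divided by the array's 75th percentile, and a bright gene can carry a sum, so the calls of the single genes are given too. The 8 acinar markers summed to 1974 to 2095 in stem cells and 7480 to 8173 in the others, and 7 of the 8 fell. The 8 basal duct and myoepithelial markers summed to 208 to 213 against 85.4 to 90.7. Here Krt17, Krt14, Krt5 and Cdh3 rose, while Trp63 (0.55) and the smooth muscle genes Acta2 (-0.11), Myh11 (-0.21) and Cnn1 (-0.37) did not pass. The 7 epithelial markers were above background in both groups (1463 to 1515 against 937 to 958), with Krt18 the brightest. Of these Krt19, Krt18 and Krt8 rose and Epcam (-1.23) and Esrp1 (-0.59) fell.

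The 5 granular convoluted tubule markers summed to 443 to 466 in stem cells against 130 to 135, where Klk1 (3.25) and Crisp3 (1.54) rose and Egf (-1.26) fell. Endothelial markers summed to 29.4 to 30.2 against 11.8 to 12.8, with 7 of 10 above background and Cdh5, Emcn and Tie1 above background on no array. Of 6 tested, 4 (Ly6c1, Cd34, Ramp2 and Robo4) were called higher, while Kdr (0.40) and Pecam1 (-0.51) did not pass. The brightest tested were Kdr (3.92 and 3.62 in stem cells, 3.31 and 3.43 in the others) and Ly6c1 (3.64 and 3.66 against 0.04 and 0.35). White blood cell markers summed to 66.8 to 87.5 against 42.4 to 48.0, with 4 of 12 above background. That sum rested mainly on Itgam, at 6.32 and 5.94 against 5.18 and 5.36, which rose. Cd3e (0.14), Cd79a (0.10) and Csf1r (-0.23) did not pass, and the pan-leukocyte gene Ptprc was above background on no array. Fibroblast markers summed to 21.8 to 23.5 against 9.13 to 9.79, with 3 of 6 above background and Col1a1, Lum and Pdgfra on no array. Of the 2 tested, Dcn (2.14) was called higher and Col1a2 (-0.49, both stem cell arrays below both others) did not pass. Erythroid markers summed to 63.7 to 64.8 in stem cells against 267 to 308, and all 5 that were tested fell. Mast cell markers (3.80 to 4.01 against 5.56 to 14.0) and nerve and Schwann cell markers (13.1 to 13.9 against 23.2 to 26.4) were lower in sum in stem cells, with 1 gene called in each direction in both lists. The part of these cell types in the mitosis differences was not tested.

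**Figure D5:**
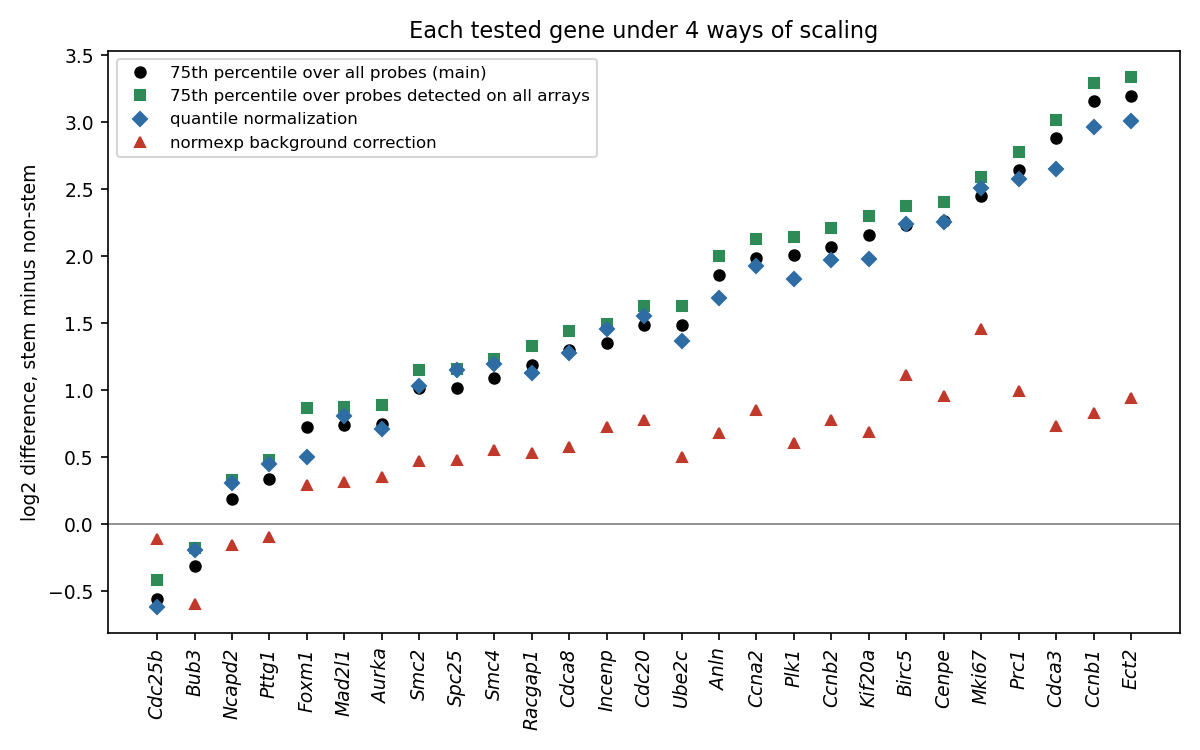
Log2 difference of each of the 27 tested genes under 4 settings of background correction and scaling, ordered by the main value. The order of the genes is broadly kept. Normexp background correction, run with an offset of 50 added to every signal, gives smaller values (median 0.61 against 1.49). Ncapd2 and Pttg1 lie below 0 under normexp alone, and Cdc25b and Bub3 lie below 0 under all 4.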

How the data were processed

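Total RNA of 4 sorted samples was labelled with Cy3 and hybridised to Agilent one-colour mouse arrays. The authors' scanner output holds spot intensity values background-subtracted by Agilent Feature Extraction, version 10.7.3.1 per the file headers and 9.1 per the submitters' processing notes. The authors also deposited a table of log2 values with unstated scaling, whose differences between arrays matched the scanner's and whose column medians were -0.28, -0.55, -0.83 and -0.76. It served as an alternative.

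From the scanner files, control and outlier spots were left out and the spots of a probe were averaged (55681 probes). Log2 processed signal minus the array's 75th percentile was the measure. A probe was tested if well above background on at least 2 of 4 arrays, with the brightest such probe standing for its gene. The 2 groups were compared by lmFit and eBayes of limma 3.58.1 (R 4.3.3), with Benjamini-Hochberg adjustment over all 17362 genes and a threshold of 0.05. The fit was checked on simulated data. Genes were named through RefSeq accessions where they matched, otherwise as on the array. No spot was saturated.

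The mitosis genes and all lists were chosen with earlier results of these data known. The genes named are, for each role, the 3 largest differences past the threshold and every tested gene that did not pass; the rest are named so that all 47 are accounted for. From each other list up to 4 genes of smallest p are named, and those that passed against the direction of most. Alternatives covered background correction (normexp with an offset of 50), scaling, filter, probe choice, variance model, a replicate block and leaving out each array. The crossed block and no scaling were added after seeing the data, and so were the printed window of 180 bases, the 50-base distance and the count of at least 2 CCAAT boxes.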

Additional observations from a re-analysis of the deposited data

How the results depend on the processing

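Replicate numbers in the labels do not pair the samples by the correlation of their deviations from the group means (-0.10). With the replicate number as a block, 22 mitosis genes were called higher and 0 lower, with 2367 higher and 2965 lower over all genes and 28 and 6 among the other mitosis lists; with the numbers crossed, 21 mitosis genes, 2102 and 2438 of all genes, and 26 and 3 of the other lists.

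The number of the 27 mitosis genes called higher was 19 after normexp correction, 20 after quantile normalization, 22 with the percentile over probes detected on all arrays, 21 with the deposited log2 values, 21 with the mean of a gene's probes and 22 with an intensity trend. The mitosis count was 16 of 47 with no filter on dim probes, against 841 of 36280 genes. It was 15 of 19 when all 4 arrays had to be above background, against 2891 of 14395 genes. In the 8 settings that change neither filter, fold nor arrays, 18 genes were called each time, and 12 of them also with each array left out: Ccnb1, Ccnb2, Mki67, Plk1, Birc5, Cenpe, Ube2c, Cdca3, Kif20a, Prc1, Ect2 and Anln. Of the 12, Ccnb1, Plk1, Cdca3, Kif20a and Ect2 entered the test through the stem cell arrays alone. The fits without an array kept the filter set on all 4 arrays. How many of all genes were called in every one of the 8 settings, or in those and every fit without an array, was not counted. With no filter Ccna2, Smc2, Smc4, Aurka, Mad2l1, Incenp, Cdca8, Cenpe, Spc25 and Racgap1 did not pass, and Ube2c did not pass without scaling. Pttg1 passed with the percentile over detected probes (0.48, limma adjusted p = 0.047) and Foxm1 without stem cell replicate 2 (0.80, limma adjusted p = 0.019).

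Normexp correction gave 1602 genes higher and 4735 lower over all genes, 1 mitosis gene lower (Bub3), 21 of the other mitosis genes lower, a mitosis median of 0.61, and -0.16 for Ncapd2 and -0.10 for Pttg1. The mean of a gene's probes put Pttg1 at -0.0083. With no filter 841 genes were higher and 765 lower, with 12 and 0 among the other mitosis genes, over more genes tested. With at least 2-fold required, 1226 and 1667 genes passed, and 17 and 2 of the other lists. The other lists had 3 lower with the percentile over detected probes and 12 lower with an intensity trend and robust variances. With no scaling the counts were 432 and 8901 for all genes, 12 and 2 for the mitosis genes and 5 and 43 for the other lists; the mitosis median was 0.57, and Ncapd2, Foxm1, Aurka, Mad2l1 and Pttg1 read -0.73, -0.19, -0.17, -0.18 and -0.58. The cause of these changes was not tested.

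Leaving out 1 array gave 12 to 22 mitosis genes higher and 0 to 0 lower, a median of 1.38 to 1.67, 688 to 2875 genes higher and 903 to 3564 lower among all, and 7 to 33 higher and 1 to 7 lower among the other lists. The lowest counts came without non-stem cell epithelia replicate 2 (12 mitosis genes, 688 and 903 of all genes), and without non-stem replicate 1 there were 16 mitosis genes, 1007 and 1197 of all genes. A lone sample is assumed there to vary like the other group. Signal over background limits the report to 27 of the 47 genes.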
